A study of Homo sapiens with 6 samples.

Results

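The genes described here are 33 targets of the transcription factor p53, chosen by name from the p53 pathway without CDKN1A and the BCL2 family. They were found among the probe sets by the gene symbol of the array's platform annotation. Of the 33 genes, 31 had at least 1 probe set that carried their symbol alone, 104 probe sets in all, out of 18132 genes and 49293 tested probe sets. BTG2 and FDXR had no such probe set, so their expression is not analysed here. Both were kept in the sequence search below. Transcripts were measured on 1-colour arrays in the human hepatoma line Huh7, harvested in logarithmic growth. There were 3 arrays of KCa3.1 silenced cells, labelled as a KCa3.1 knockdown, and 3 arrays of control Huh7 cells. KCa3.1 is a calcium-activated potassium channel encoded by KCNN4. How the channel was silenced and what the control cells received are not given in the sources used here, and all 6 arrays come from this 1 cell line.

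In normal cells p53 is kept low by MDM2, which marks it for degradation. DNA damage and other stresses stabilise p53, which then binds its response elements and raises genes of growth arrest, DNA repair, antioxidant defence and apoptosis, along with its own inhibitors. Many of the genes below are also known to be controlled by other transcription factors.

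A p53 response element is made of a pair of half-sites, each 10 bases long: purines, then C, a pair of bases that are A or T, G, and pyrimidines. The half-site consensus reads the same on both strands. It was searched for in RefSeq windows of GRCh38.p14 that run from 250 bases before to 50 bases after each annotated start site. Windows were found for 28 of the 33 genes, and not for GADD45A, RRM2B, TNFRSF10B, PHLDA3 and TP53INP1. A half-site stood in the windows of 7 of these 28 genes (25%), and in those of 8.06% of 27305 genes in the same table. A pair of half-sites at most 13 bases apart stood in 1 of the 28 genes, DDB2, and in 0.0366% of all genes. Only exact matches to the consensus were counted, and bases outside the windows were not searched. Elements with a mismatch or elsewhere in a gene would therefore be missed. Since the members were chosen as p53 targets, these shares describe the choice. The sites are shown because they are the element through which p53 is known to act. Each is given on the gene's strand, 5′ to 3′, with the half-sites in capitals.
DDB2, chr11:47214975-47215004, plus strand: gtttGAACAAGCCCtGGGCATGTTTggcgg
SESN1, chr6:109009018-109009047, minus strand: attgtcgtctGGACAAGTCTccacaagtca
PLK2, chr5:58460199-58460228, minus strand: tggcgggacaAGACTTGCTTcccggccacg
FAS, chr10:88991299-88991328, plus strand: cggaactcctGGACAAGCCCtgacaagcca
AEN, chr15:88621296-88621325, plus strand: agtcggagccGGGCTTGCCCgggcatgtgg
EI24, chr11:125569457-125569486, plus strand: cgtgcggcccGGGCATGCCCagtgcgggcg
FDXR, chr17:74872986-74873015, minus strand: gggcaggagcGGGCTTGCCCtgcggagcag
Each position is counted from the annotated start of the window that holds it, which in DDB2, SESN1, FAS and AEN is a start inside the gene's annotated span and not its outermost one. The first half-site of DDB2 begins at base 6 after such a start, and those of SESN1, FAS and AEN at -49, -122 and -34. Those of PLK2, FDXR and EI24 begin at -132, -11 and -10. A match is no evidence that p53 was bound there in these cells.

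All values are log2 RMA values that had been centred for each probe set, so they show differences between arrays and not how strongly a gene was expressed. A gene's value is the mean of its probe sets, and changes are silenced minus control. The markers of Huh7 cells and of other cell types could therefore not be checked as levels. Among hepatocyte and hepatoma markers 4 of 7 were higher in silenced arrays (AFP, GPC3, SERPINA1 and FGB) and 0 were lower. Of markers of other cell types 1 of 7 fibroblast genes (COL1A2, change 0.55), 1 of 6 leukocyte and blood genes (LYZ, 0.34) and 0 of 6 endothelial genes were higher, and 0 were lower. Over all genes the same test gave 7.14% higher and 6.19% lower. All 6 endothelial genes also had an unadjusted p over 0.05 in limma. The part of these markers in the results below was not tested. In these bulk samples fewer cells of a kind and less RNA per cell cannot be told apart. The difference between the 3′ and 5′ probe sets of the control transcripts ACTB and GAPDH moved by 0.05 and by -0.01 between groups (exact permutation p = 0.5 each, two-sided). KCNN4 did not bear out the label, with 0.02 ± 0.072 in silenced and 0.02 ± 0.101 in control arrays (SD, n = 3 each). Its change was -3e-04, with a 95% interval of -0.16 to 0.16 (limma adjusted p = 0.999). An exact permutation test gave p = 1, where 3 against 3 arrays can reach 0.1. However, all 3 KCNN4 probe sets may also pick up RNA other than that of KCNN4, and the level of their signal is unknown. Whether this hid a fall of KCNN4 was not tested. The directions below are those between arrays as labelled.

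Of the 31 measured p53 targets, 5 were higher and 5 lower in the silenced arrays, and 21 did not pass the test (limma, adjusted p under 0.05 over all genes). TP53INP1, ZMAT3, BTG1, SESN3 and PLK2 rose, and DDB2, TRIAP1, GADD45B, SESN1 and POLH fell. Among all genes 13.3% were called, 7.14% higher and 6.19% lower, against 32.3% of the members. The members were chosen with earlier results of these data known, so their share may reflect that choice. The median change was 0.01 over the members and -0.01 over all genes, and the median size of the change was 0.18 over the members and 0.08 over all genes. In 17 members, all 10 called ones among them, the 3 silenced values did not overlap the 3 control values, which held for 29.3% of all genes. An unadjusted p under 0.05 was found for 16 members and for 24.6% of all genes. DDB2 alone among the members changed by over 2-fold. The higher calls were 3 in place of 5 without silenced replicate 1 and without control replicate 1. Calls over all genes were then 1793 and 2289, in place of 2418.

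**Figure D1:**
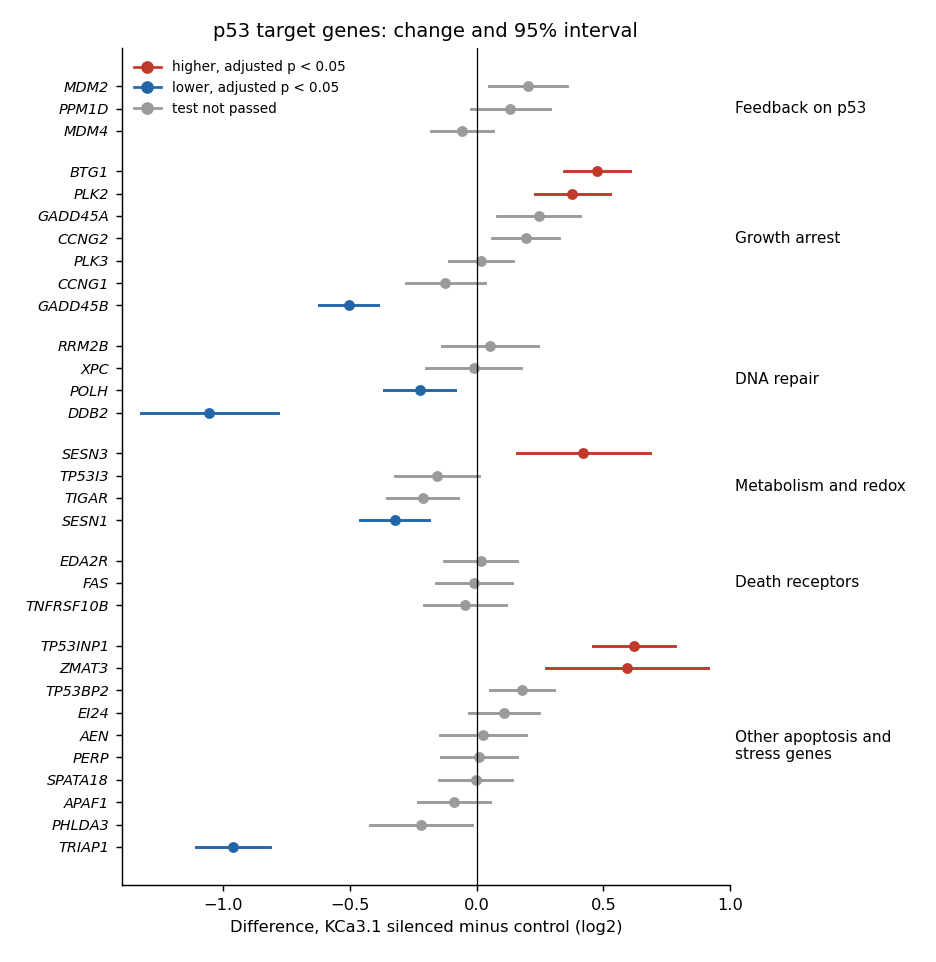
Change of each of the 31 measured p53 targets on the log2 scale, silenced minus control (horizontal axis), grouped by role, with points for the limma estimate and lines for its 95% interval. The 5 higher genes lie between 0.38 and 0.62, and the 5 lower genes between -1.05 and -0.22, while the feedback genes and death receptors hold no called gene.

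The genes that feed back on p53 did not pass the test. MDM2 encodes the ubiquitin ligase that degrades p53 and is its best-known target. It had values of 0.11, -0.01 and 0.01 in silenced arrays, against -0.22, -0.23 and -0.05 in control arrays. The groups did not overlap, and control replicate 3 lay closest to the silenced arrays. The change was 0.20 (SE 0.068, limma adjusted p = 0.0947), and it passed the test without control replicate 3 (0.26, limma adjusted p = 0.0476). MDM4, a relative of MDM2 that blocks p53's activity, had a change of -0.06, with overlapping groups. PPM1D, which encodes the phosphatase WIP1 that turns the damage response off, had a change of 0.13 (limma adjusted p = 0.286).

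Growth arrest genes moved in both directions. BTG1, an antiproliferative gene of the BTG/TOB family on chr12:92140278-92145846, had values of 0.21, 0.23 and 0.15 in silenced arrays, against -0.35, -0.23 and -0.26 in control arrays. The 2 groups lay well apart, and BTG1 was 1.39-fold higher (0.47 in log2 units with an SE of 0.057, limma adjusted p = 0.00072). All 3 of its probe sets rose, by 0.40 to 0.53.

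PLK2, a stress-induced kinase of the polo-like family on chr5:58453982-58460086, had values of 0.24, 0.18 and 0.31 in silenced arrays. Its control values were -0.22, -0.13 and -0.05. It was 1.3-fold higher, with no overlap (0.38 in log2 units with an SE of 0.065, limma adjusted p = 0.00503). Of its 4 probe sets 3 passed the test, and the changes ran from 0.29 to 0.51.

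GADD45B fell. It encodes a stress-inducible activator of the p38 and JNK kinase pathways and lies on chr19:2476127-2478257. Its values were -0.23, -0.23 and -0.21 in silenced arrays, against 0.26, 0.27 and 0.32 in control arrays. The spread within each group was small beside the gap between them, and GADD45B was 1.42-fold lower (-0.50 in log2 units with an SE of 0.051, limma adjusted p = 3e-04). All 4 of its probe sets fell, with changes of -0.71, -0.57, -0.37 and -0.37.

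The remaining 4 measured growth arrest genes did not pass, with changes from -0.12 to 0.24. GADD45A, a p53-induced gene of arrest and DNA repair, had values of 0.03, -0.13 and 0.07 in silenced arrays and -0.35, -0.23 and -0.18 in control arrays. Its groups did not overlap, and the change of 0.24 lay just outside the threshold (SE 0.072, limma adjusted p = 0.0575). CCNG2, an unconventional cyclin linked to arrest and also known as a target of FOXO factors, had values of -0.03, 0.06 and 0.07 in silenced arrays, against -0.20, -0.09 and -0.18 in control arrays. It too lay just outside, with a change of 0.19 (limma adjusted p = 0.0642). CCNG2 passed with the most variable probe set in place of the mean (0.42, limma adjusted p = 0.015) and with array weights (limma adjusted p = 0.0383). The most variable probe set was picked by its spread over arrays of both groups. The group difference is part of that spread, so the pick favours larger changes. Its relative CCNG1, a p53 target that recruits a phosphatase to MDM2, had a change of -0.12, and PLK3 one of 0.02. A further probe set annotated to PLK3 together with its neighbour BTBD19 was not used.

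DNA repair genes held the largest fall. DDB2 encodes the damage-binding subunit that finds ultraviolet lesions for nucleotide excision repair. It is the gene with the exact pair of half-sites printed above. It lies on chr11:47214454-47239217. Its values were -0.14, -0.65 and -0.37 in silenced arrays, against 0.56, 0.67 and 0.78 in control arrays. The silenced arrays were spread more widely than the control arrays (SD 0.26 and 0.11), yet the nearest values of the groups were still far apart. DDB2 was 2.08-fold lower (-1.05 in log2 units with an SE of 0.119, limma adjusted p = 0.00052), and its 2 probe sets gave changes of -1.09 and -1.02.

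POLH, which encodes the translesion polymerase eta that copies past ultraviolet damage, lies on chr6:43576185-43620523. It had values of -0.12, 0.03 and 0.01 in silenced arrays, against 0.21, 0.15 and 0.23 in control arrays. The groups were close without overlap, and the log2 value of POLH fell by 0.22 (SE 0.061, limma adjusted p = 0.0422). That call was lost without any 1 of the 6 arrays, where its adjusted p in limma lay between 0.0624 and 0.139. All 4 probe sets had negative changes and 1 of them passed. XPC, which encodes another sensor of repair, and RRM2B, the p53-inducible ribonucleotide reductase subunit, had changes of -0.01 and 0.05 with overlapping groups.

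**Figure D2:**
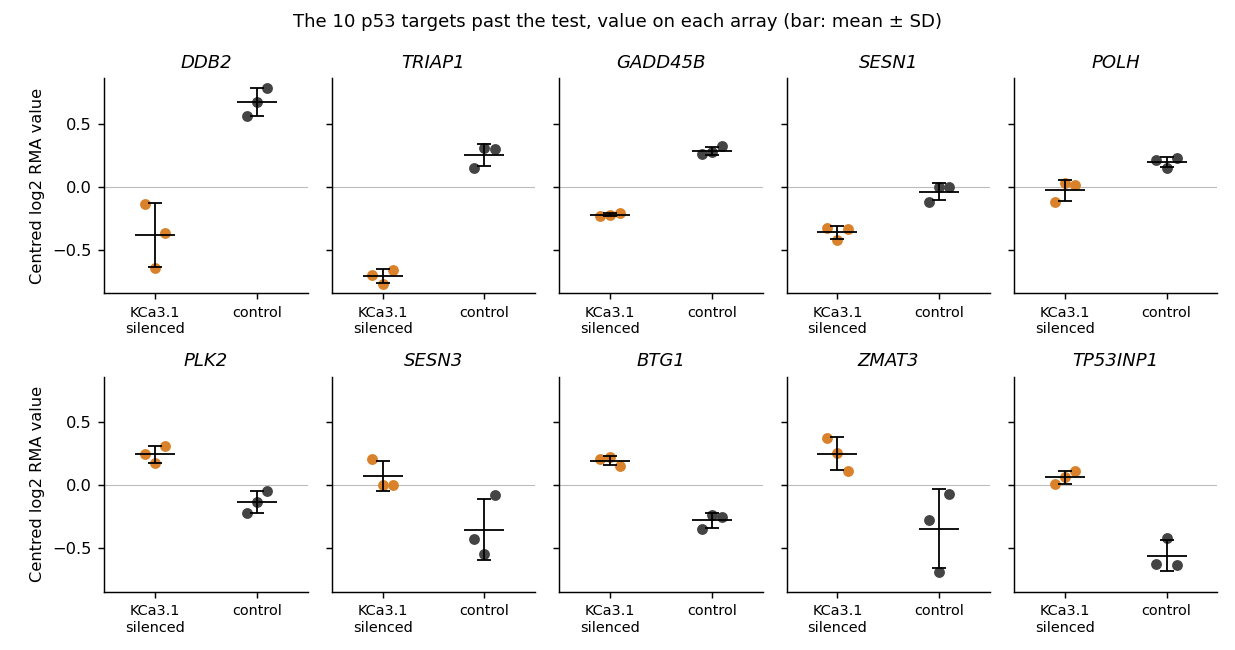
Centred log2 RMA value (vertical axis) of the 10 called p53 targets on each of 3 KCa3.1 silenced arrays and 3 control arrays, with bars for the mean ± SD. The groups are apart in every panel, most widely in DDB2 and TRIAP1, and among the control groups those of ZMAT3 and SESN3 are the most spread.

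Among the metabolic and redox targets the sestrins moved in opposite directions. Sestrins are stress-induced proteins that restrain mTORC1. SESN1, on chr6:108984309-109094846, had values of -0.33, -0.42 and -0.34 in silenced arrays, against -0.12, 0.00 and 0.00 in control arrays. It was 1.25-fold lower (-0.32 in log2 units with an SE of 0.06, limma adjusted p = 0.00757), with changes of -0.34 (called) and -0.30 (not called, limma adjusted p = 0.0775) in its 2 probe sets. Taken by its more variable probe set, the one with -0.30, the gene was not called (limma adjusted p = 0.0835).

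SESN3, known also as a target of FOXO factors, lies on chr11:95165513-95232475. It had values of 0.21, 0.00 and 0.00 in silenced arrays, against -0.43, -0.54 and -0.08 in control arrays. Control replicate 3 lay close to the silenced arrays, and no values overlapped. SESN3 rose by 0.42 (SE 0.116, limma adjusted p = 0.0436), with changes of 0.41 (not called, groups overlapping) and 0.43 (called) in its 2 probe sets. Its call was lost without silenced replicate 1, 2 or 3 and without control replicate 1 or 2, where its adjusted p in limma lay between 0.0797 and 0.148.

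TIGAR encodes a fructose bisphosphatase that turns glucose towards the pentose phosphate pathway. Its values were 0.00, -0.02 and 0.05 in silenced arrays, against 0.17, 0.17 and 0.32 in control arrays. The groups did not overlap, and TIGAR was the member nearest to the threshold among those that missed it (change -0.21, SE 0.062, limma adjusted p = 0.0546). One of its 2 probe sets, with a change of -0.29, passed on its own (limma adjusted p = 0.0273 over all probe sets). The gene passed with the most variable probe set, a pick that favours larger changes (limma adjusted p = 0.0461), and with array weights (limma adjusted p = 0.0401). TP53I3, a p53-induced quinone oxidoreductase, had a change of -0.16 (limma adjusted p = 0.236).

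The 3 death receptor genes were close to 0. FAS, which encodes the receptor of the FAS ligand, had a change of -0.01 and a 95% interval of -0.16 to 0.14. TNFRSF10B, which encodes the TRAIL receptor DR5, had one of -0.04, with an interval of -0.21 to 0.12. EDA2R, the receptor of ectodysplasin A2, had one of 0.02, with an interval of -0.13 to 0.16. The groups overlapped in all 3 genes, and these intervals leave out changes beyond 0.21 in either direction.

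Of the other 10 genes of apoptosis and stress, 2 rose, 1 fell and 7 did not pass. TRIAP1 encodes a small mitochondrial protein known to restrain apoptosis by supporting lipid transfer in mitochondria, and lies on chr12:120443964-120446384. Its values were -0.70, -0.77 and -0.66 in silenced arrays, against 0.15, 0.31 and 0.30 in control arrays. It was 1.95-fold lower, with a narrow spread in both groups (-0.96 in log2 units with an SE of 0.064, limma adjusted p = 2.9e-05). TRIAP1 had 1 probe set, of the kind whose probes can match several transcripts.

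ZMAT3 encodes an RNA-binding zinc finger protein that is a direct p53 target and acts in splicing and mRNA stability. It lies on chr3:179017223-179072513. Its values were 0.37, 0.26 and 0.11 in silenced arrays, against -0.28, -0.69 and -0.07 in control arrays. The control arrays were the most widely spread of any member (SD 0.31), and the groups did not overlap. ZMAT3 was 1.51-fold higher (0.59 in log2 units with an SE of 0.141, limma adjusted p = 0.0239). Its call was lost without silenced replicate 1, silenced replicate 2 or control replicate 1, where the change lay between 0.53 and 0.63 and the adjusted p in limma between 0.0546 and 0.0734.

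TP53INP1, which encodes a nuclear and autophagy protein of the stress response, had the largest rise. It lies on chr8:94925972-94949378. As a gene it had values of 0.01, 0.06 and 0.11 in silenced arrays, against -0.63, -0.42 and -0.64 in control arrays. It was 1.54-fold higher (0.62 in log2 units with an SE of 0.072, limma adjusted p = 0.00059), but that value is the mean of 2 probe sets that do not share it, as described below.

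The 7 others had changes from -0.22 to 0.18. PHLDA3, which encodes an inhibitor of AKT, had -0.06, -0.03 and 0.08 in silenced and 0.40, 0.18 and 0.06 in control arrays, with overlap (change -0.22, limma adjusted p = 0.162). TP53BP2, which encodes the p53-binding protein ASPP2, had 0.03, -0.07 and 0.05 in silenced and -0.18, -0.16 and -0.18 in control arrays, without overlap (change 0.18, limma adjusted p = 0.0725). EI24, which encodes a membrane protein of the endoplasmic reticulum, had a change of 0.11, and APAF1, which encodes the scaffold of the apoptosome, one of -0.09. AEN, an apoptosis-enhancing nuclease, PERP, a desmosomal membrane protein, and SPATA18, which acts in mitochondrial quality control, lay between 0.00 and 0.03. For SPATA18 this is the mean of probe sets with changes of both signs, as described below.

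At the level of probe sets, 22 of the members' 104 passed the test, 12 higher and 10 lower. Over all probe sets 10.7% passed, 5.82% higher and 4.85% lower. They belonged to the 10 called genes and to MDM2, CCNG2 and TIGAR. Without silenced replicate 3 the higher probe sets were 6. No member had called probe sets in both directions (0 genes). Of the 26 members with several probe sets, 7 held changes of both signs, against 45.7% of all 11734 such genes. Exact zeros made up 16% of the members' values and 18.9% of all values, and the step that left them is not stated. Ties at 0 make arrays of a group look more alike than they may be.

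To ask whether 2 probe sets of a gene differ, the within-array difference of each pair was tested over all genes with 2 to 10 probe sets. Among members 1 of 149 pairs from 25 genes passed, against 1.81% of all 56241 pairs (limma, adjusted p under 0.05). An unadjusted p under 0.05 was found for 14 of the 149 pairs and for 13.5% of all pairs. The pair that passed was that of TP53INP1. Its probe set 1 had values of 0.00, 0.02 and 0.08 in silenced arrays, against -1.20, -0.95 and -1.16 in control arrays, a rise of 1.14 (SE 0.08, limma adjusted p = 8.7e-05 over all probe sets). Its probe set 2 had 0.02, 0.11 and 0.14 in silenced arrays, against -0.05, 0.12 and -0.11 in control arrays, a change of 0.11 that did not pass (limma adjusted p = 0.505). The rise therefore rested on 1 of the 2 probe sets, and their changes differed by 1.03 (SE 0.067, limma adjusted p = 0.0015 over all pairs). Which part of the transcript each probe set covers is not given in the sources used here.

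Other members had probe sets that stood apart without passing that test. CCNG2 had 4 probe sets with changes from 0.20 to 0.42 and 1 with a change of -0.24, and the widest pair differed by 0.66 (limma adjusted p = 0.125). SPATA18 had changes of 0.19, -0.06 and -0.15, and its widest pair differed by 0.33 (limma adjusted p = 0.139). In TNFRSF10B the changes ran from -0.13 to 0.11, and the widest pair differed by 0.24 (limma adjusted p = 0.252). The probe sets of GADD45B all fell, but by unlike amounts (smallest limma adjusted p of a pair = 0.126). MDM2 had 11 probe sets, 9 with positive changes and 2 with negative ones, from -0.11 to 0.46. Of these, 2 rose, by 0.30 and 0.27 (limma adjusted p = 0.0312 and 0.0414). Since MDM2 has over 10 probe sets, its pairs were tested in a second fit added after the data were seen, in which 0 of its 55 pairs passed in limma, against 1.88% of 59355 pairs (smallest adjusted p = 0.111, 7 pairs with an unadjusted p under 0.05). The 2 MDM2 probe sets with the largest changes, 0.46 and 0.40, did not pass, and both had control replicates 1 and 2 between -0.61 and -0.57 and control replicate 3 at 0.00 and 0.08.

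**Figure D3:**
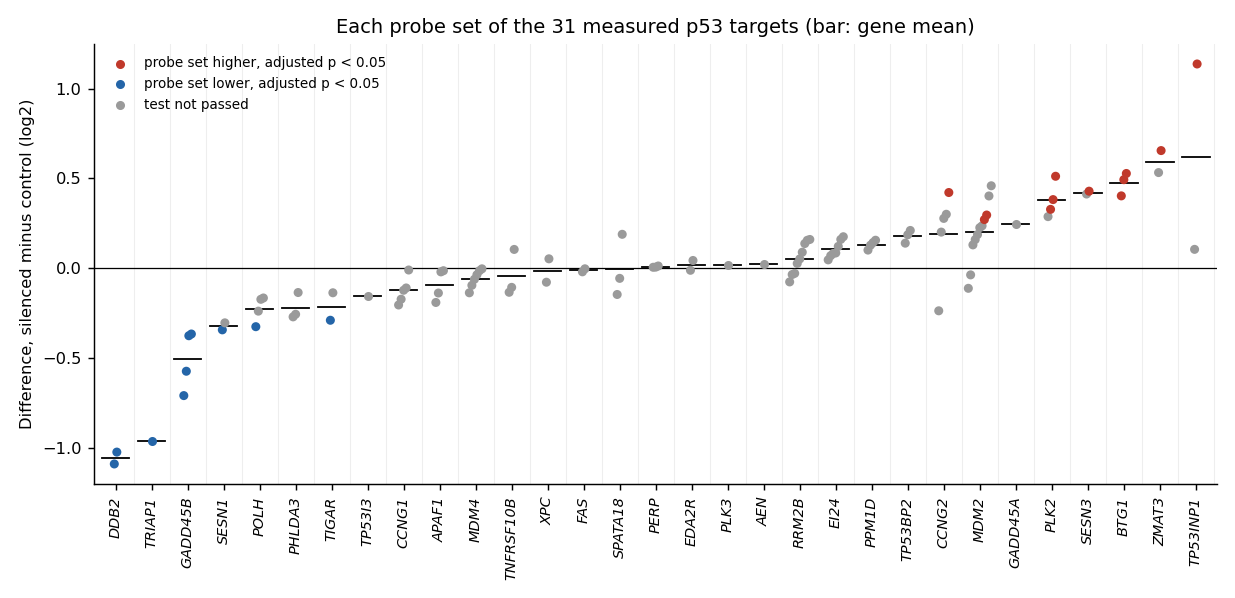
Change of each of the 104 probe sets on the log2 scale, silenced minus control (vertical axis), for the 31 measured p53 targets ordered by their mean change (black bars). The 2 probe sets of TP53INP1 stand 1.03 apart, and the 11 of MDM2 spread from -0.11 to 0.46.

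For 5 pairs of related genes the difference between the relatives was taken within each array. As values are centred, only the shift of that difference between the groups can be read. GADD45A minus GADD45B was 0.26, 0.10 and 0.28 in silenced arrays, against -0.61, -0.50 and -0.50 in control arrays. SESN1 minus SESN3 was -0.53, -0.42 and -0.34 in silenced arrays, against 0.31, 0.54 and 0.08 in control arrays. In all 5 pairs the groups were apart without overlap. The within-array differences moved by 0.75 for GADD45A minus GADD45B and by -0.74 for SESN1 minus SESN3. They moved by 0.36 for PLK2 minus PLK3, by -0.32 for CCNG1 minus CCNG2 and by 0.26 for MDM2 minus MDM4. With the most variable probe set of each gene, a pick that favours larger changes, the shift was -0.63 for CCNG1 minus CCNG2. It was 0.50 for MDM2 minus MDM4. All 5 pairs gave an exact permutation p = 0.1 (two-sided, 0.1 also after Benjamini-Hochberg adjustment over the 5 pairs), the smallest that 3 against 3 arrays allow. Only GADD45B, SESN1, SESN3 and PLK2 of these 10 genes passed limma's test on their own.

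**Figure D4:**
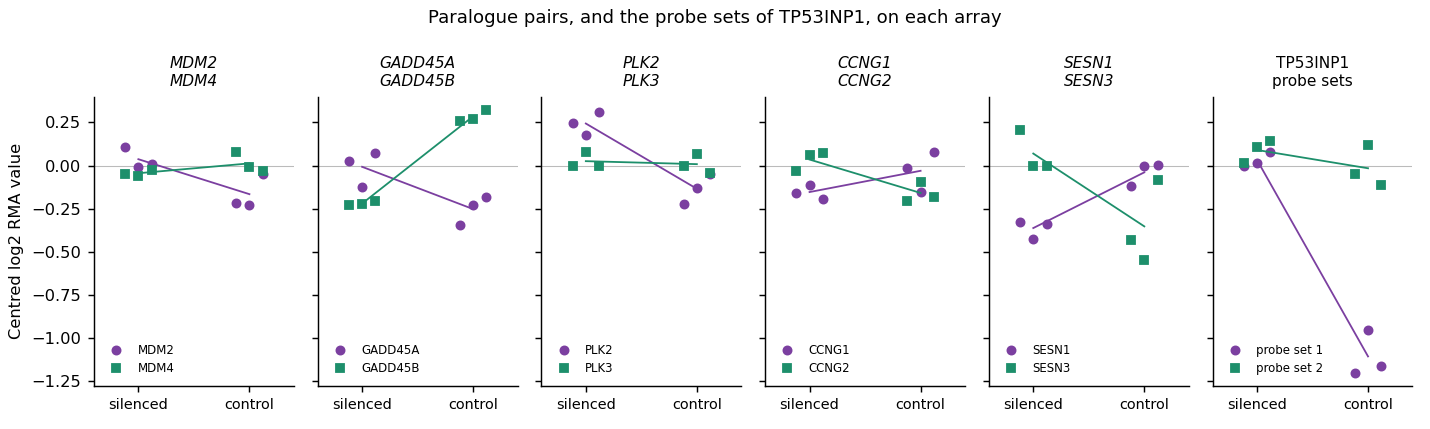
Centred log2 RMA value (vertical axis) on each of 3 silenced and 3 control arrays for 5 pairs of related genes and for the 2 probe sets of TP53INP1 with lines joining the group means. Since values are centred, only the slopes can be compared, and these run in opposite directions most steeply in the GADD45 and SESN panels. In the last panel probe set 1 falls far below 0 in the control arrays.

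Of 26 measured regulators of p53 (its family, kinases, cofactors and ligases), 2 were higher, 1 was lower and 23 did not pass, with a median change of 0.01. The share called, 11.5%, was near the 13.3% of all genes. HIPK2, a kinase that phosphorylates p53 in response to severe damage, was 1.45-fold higher (0.53 in log2 units with an SE of 0.055, limma adjusted p = 0.00031). Its values were 0.25, 0.18 and 0.20 in silenced arrays, against -0.36, -0.34 and -0.27 in control arrays. RCHY1, which encodes the p53 ubiquitin ligase PIRH2, rose by 0.52 (limma adjusted p = 0.00572). PPP1R13L, which encodes the p53 inhibitor iASPP, fell by 0.44 on the log2 scale (limma adjusted p = 0.029).

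A list of 70 other genes known as p53 targets also held calls in both directions. Of 67 measured genes 8 were higher, 7 lower and 52 did not pass (22.4% called), with a median change of 0.00. Of all genes 13.3% were called, 7.14% higher and 6.19% lower. This list too was chosen with earlier results of these data known. PGF, which encodes placental growth factor, was 2.4-fold higher (1.26 in log2 units with an SE of 0.086, limma adjusted p = 3.1e-05). Its values were -0.04, 0.00 and 0.00 in silenced arrays, against -1.48, -1.18 and -1.16 in control arrays. TSKU, which encodes a secreted leucine-rich protein, rose by 0.66 and KITLG, the stem cell factor gene, by 0.39. IKBIP fell by 0.60, SFN, which encodes the G2 arrest protein 14-3-3 sigma, fell by 0.40, and SERTAD1 fell by 0.35 on the log2 scale. The 15 calls were 9 without silenced replicate 2, 9 without silenced replicate 3 and 8 without control replicate 2. Calls over all genes were then 1720, 1641 and 1794, in place of 2418.

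Active p53 is also known to lower cell cycle genes through p21 and the DREAM repressor complex. Of 25 such genes 1 rose, 3 fell and 21 stayed short of the threshold, with 20 of the 25 changes below 0 and a median change of -0.10. The share called, 16%, was near the 13.3% of all genes, and 9463 of all 18132 genes had changes below 0. E2F1 fell by 0.32, AURKB, the kinase of the chromosomal passenger complex, fell by 0.27 and MYBL2 fell by 0.24 on the log2 scale, while BIRC5, which encodes survivin, rose by 0.20. Of these 4 calls 1 was left without silenced replicate 1, 2 without control replicate 1, 2 without control replicate 2, and 0 without silenced replicate 2, silenced replicate 3 or control replicate 3 (limma).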

How the data were processed

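The deposited values are log2 values made by the authors with RMA (version not given in the sources used here), per the submitters' processing notes. From the values, each probe set was centred by a step not stated, and base 2 was assumed because RMA writes it by default. Of 49395 probe sets, 102 control probe sets were left out. Of the other 49293, 44988 had 1 gene symbol, 1832 several and 2473 none, per GEO's platform annotation. Genes are the mean of their probe sets with 1 symbol.

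The test was limma's (lmFit, then eBayes, group as the only term, 6 arrays; limma 3.58.1, R 4.3.3), with Benjamini-Hochberg adjustment over all genes, probe sets or pairs, and called at an adjusted p under 0.05. The fits were tested on simulated data. The number of arrays limits the precision. The labels do not say that replicates are separate cultures, so p-values rest on the variation among these arrays, which could be technical only. The members, gene lists, related pairs and roles were chosen with earlier results of these data known. Genes of the other lists are named as the 3 largest called changes in each direction. Values in every array are given for members that were called, had a called probe set or a pair of probe sets that differed; those of GADD45A, PHLDA3 and TP53BP2 were added after their values were seen. Sequences and positions are RefSeq's, for GRCh38.p14.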

Additional observations from a re-analysis of the deposited data

How the results depend on the processing

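Across leave-one-out fits, other weights, other normalisation, other probe set summaries, a filter on variation, a stricter threshold and a replicate block, no called member changed direction. BTG1, PLK2, DDB2, GADD45B, TP53INP1 and TRIAP1 kept their calls under every alternative run, except that TRIAP1 has no specific probe set and so no value there. For TP53INP1 the median and the specific probe sets gave the same 0.62 as the mean, and the most variable probe set was the rising one. These summaries could therefore not show its probe set that did not pass. Leaving out 1 array gave 3 to 6 higher and 4 to 5 lower members, and 6 to 11 higher and 8 to 9 lower probe sets. Calls over all genes were then 1641 to 2289, against 2418 in the main fit. At an adjusted p under 0.01, 3 members were higher and 5 probe sets were higher, with 1303 of all genes called. With array weights 7 members were higher and 6 lower, with 2862 of all genes called. The most variable probe set gave SESN1 a change of -0.30 and SESN3 one of 0.41, neither called (limma adjusted p = 0.0835 and 0.174). CCNG2 and TIGAR gained calls there and with array weights. As that probe set was picked by its spread over arrays of both groups, the pick favours larger changes. SESN3 was not called with array weights or the median of probe sets (limma adjusted p = 0.0629 and 0.0576), nor POLH after quantile normalisation or under the filter on variation (limma adjusted p = 0.0541 and 0.0751). The numbers of the replicates did not pair the arrays (residual correlations of -0.096, -0.069 and -0.04 over genes). The highest correlation of each array, 0.373 to 0.381, was with an array of another number. The replicate block used the replicate numbers, and a block by those other matches was not fitted. With the replicate block, 5 members were higher and 4 lower, as POLH was not called (limma adjusted p = 0.0874), and 2 of the genes repressed through DREAM were called, against 1 with the most variable probe set. Leaving out 1 array gave 0 to 2 such calls and 8 to 18 among the other p53 targets. KCNN4 lay between -0.045 and 0.055 without 1 array and at 0.021 with the most variable probe set, in no case called. The causes were not tested. The paralogue differences kept their signs under both alternatives run. Those of CCNG1 minus CCNG2 and MDM2 minus MDM4 grew to -0.63 and 0.50 with the most variable probe set, a pick that favours larger changes. The levels behind these values are unknown, so no probe set could be judged against background.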
